A study of Mus musculus with 9 samples.

Results

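The 2 control lines of the Pan02 study were set against each other: Pan02KD-CTL over Pan02OE-CTL, in normal medium and in H2O2. Pan02 is a murine pancreatic ductal adenocarcinoma line. Pan02KD-CTL cells had received lentiviral particles with a scrambled shRNA, and Pan02OE-CTL cells had received control particles of an open reading frame vector. Both carried GFP and were selected with puromycin, and neither was meant to change *Nlrx1*, the mitochondrial Nod-like receptor gene that the study overexpressed in Pan02OE cells and knocked down in Pan02KD cells. The members were taken by their titles: 2 Pan02KD-CTL and 2 Pan02OE-CTL arrays, which make 4 of the 9 samples listed, with 1 array for each line in normal medium and 1 after 24 hours in low-dose H2O2. The values are log2 signals of Clariom S mouse arrays for 19505 genes. Each line was a single transduced population and its 2 arrays were not replicate cultures, so that p-values reflect how far these arrays scatter, and not how far separate transductions would. The study itself compared each modified line with the control of its own vector, and kept the overexpression and shRNA lines apart.

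A lentivirus inserts its cargo at many sites, and drug selection then keeps the cells that took it up. A selected population can therefore descend from part of a tumor line, and tumor lines are mixtures of cells that differ in chromosome number and in gene activity. Control populations made with different vectors from 1 parental line also differ in what they express from the vector: a scrambled hairpin enters the RNA interference machinery, whereas an empty open reading frame vector does not.

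*Nlrx1* read 5.96 and 6.40 (normal medium, then H2O2) in Pan02KD-CTL cells, against 6.89 and 6.90 in Pan02OE-CTL cells. The lines did not overlap, and the difference of −0.71 (SE 0.17, adjusted p = 0.022, limma) passed the test, but all 4 arrays lay below 7.48, the brightest of 23 background probe sets that match no gene. The *Nlrx1* call was lost when the Pan02KD-CTL array in normal medium (adjusted p = 0.13) was left out, or the Pan02OE-CTL array in normal medium (adjusted p = 0.156) or in H2O2 (adjusted p = 0.0852). Of 13 markers of pancreatic ductal cells, 7 were above background on all 4 arrays. *Krt7*, *Krt8*, *Krt18* and *Krt19*, which encode keratins of ductal epithelium, and *Sox9*, a ductal transcription factor gene, were among them, whereas *Epcam* lay between 4.38 and 4.59 in Pan02KD-CTL cells and between 4.50 and 4.64 in Pan02OE-CTL cells. All 13 acinar and islet markers and all 9 endothelial markers were below background on all 4 arrays, as were 11 of 12 lymphocyte, 10 of 11 macrophage and 8 of 10 fibroblast markers. The mean level of the macrophage list was 5.90 and 5.97 in Pan02KD-CTL cells and 5.82 and 5.78 in Pan02OE-CTL cells. That of the fibroblast list was 5.71 and 5.59 in Pan02KD-CTL cells and 5.96 and 5.90 in Pan02OE-CTL cells.

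The control lines differed in 3302 of 19505 genes, which is 16.9% (limma, adjusted p under 0.05), with 1491 genes higher in Pan02KD-CTL cells (7.64%) and 1811 lower (9.28%). A further fold limit was set at 2-fold, where 1397 of them remained, 604 higher and 793 lower, and 62 reached a log2 difference of 4 or more. All 3302 had the same sign in both media, which the call itself favors, since it rests on the mean difference over both media. Within a single medium, with 1 array per line and no test, 1447 genes (7.42%) differed by 2-fold or more in normal medium and 1833 (9.4%) in H2O2, and 1023 (5.24%) did so in both with the same sign. Many genes on the array had a mean below the brightest background probe set, which does not show that they were silent. Among the 8241 genes whose mean over the 8 Pan02 arrays was above the brightest background probe set, 31.1% were called, 13.8% higher and 17.3% lower. The count of called genes was 2187 without the Pan02KD-CTL array in H2O2, 1871 when the Pan02OE-CTL array in normal medium was left out and 1704 when that in H2O2 was.

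**Figure D1:**
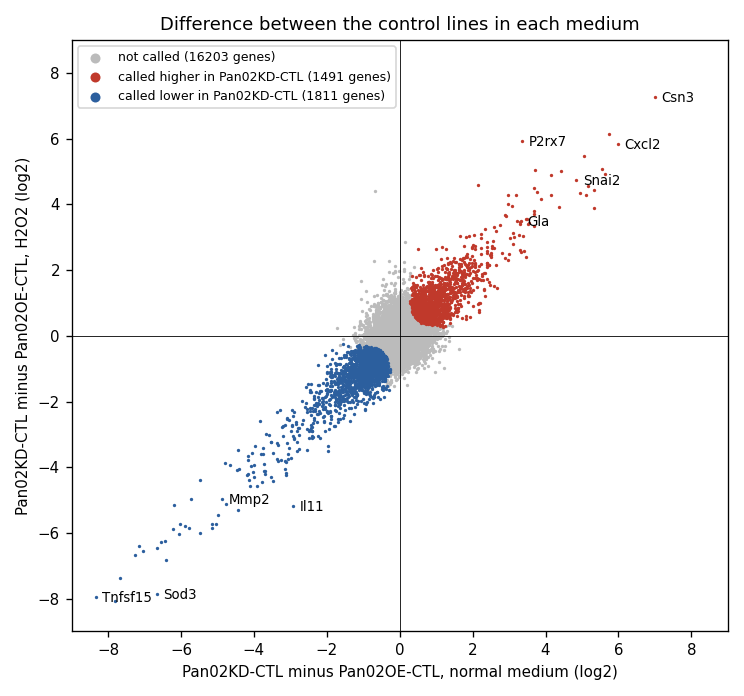
Log2 difference of Pan02KD-CTL minus Pan02OE-CTL for each of 19505 genes in normal medium (horizontal axis) and in H2O2 (vertical axis), 1 array per line and medium. Called genes lie along the diagonal in both directions, which the call favors since it uses the mean over both media. *P2rx7* and *Il11* lie off the diagonal, with larger differences in H2O2.

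The largest differences in favor of Pan02KD-CTL cells included secreted and surface proteins of inflammation. *Csn3*, which encodes the milk protein kappa-casein, read 13.29 and 13.24 in Pan02KD-CTL cells, against 6.29 and 5.96 in Pan02OE-CTL cells. The Pan02OE-CTL arrays were below background, so that *Csn3* was at least 55.1-fold higher in Pan02KD-CTL cells (log2 difference 7.14, SE 0.17, adjusted p = 5.1e-08). Wherever the lower line lay below background on both arrays, the fold is given in this way, with the brightest background probe set in place of the lower line. *Cxcl2*, a chemokine gene that recruits neutrophils, was measured in both lines. It read 14.93 and 14.32 in Pan02KD-CTL cells, against 8.95 and 8.49 in Pan02OE-CTL cells, a 59.9-fold difference (adjusted p = 2.1e-07). *Vcam1*, whose product is an adhesion receptor for leukocytes, read 13.07 and 12.22 in Pan02KD-CTL cells, against 7.44 and 7.30 in Pan02OE-CTL cells, and was at least 35.8-fold higher. *Akr1c18*, which encodes an enzyme that inactivates progesterone, was at least 26.9-fold higher, with 12.40 and 12.06 in Pan02KD-CTL cells and 6.66 and 5.92 in Pan02OE-CTL cells.

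Signaling and transcription genes were also among the 15 with the largest positive differences. *Pik3r5* encodes a regulatory subunit of PI3 kinase gamma. It read 10.53 and 10.25 in Pan02KD-CTL cells, against 5.48 and 4.78 in Pan02OE-CTL cells, and was at least 7.51-fold higher. *Snai2*, a transcription factor gene of epithelial-mesenchymal transition, read 11.31 and 11.18 in Pan02KD-CTL cells, against 6.47 and 6.45 in Pan02OE-CTL cells (at least 13.6-fold). *Foxf1*, a mesodermal transcription factor gene, was 22.9-fold higher, with 12.94 and 12.77 in Pan02KD-CTL cells and 8.80 and 7.88 in Pan02OE-CTL cells. In all 3 of these genes the arrays of a line lay close together beside the distance between the lines. *Ghr*, the growth hormone receptor gene, *Bcat1*, which encodes a transaminase of branched-chain amino acids, and *Dhrs3*, whose product reduces retinal, were at least 5.83-, 8.67- and 8.47-fold higher. *Fam83g* completed the group, with 1 of its 2 Pan02OE-CTL arrays below background, together with *Mmp13*, *Cxcl3*, *Csf2* and *P2rx7*, which are given with their families. *P2rx7*, an ATP-gated channel gene, differed most between the arrays of 1 line: it read 9.13 and 11.85 in Pan02KD-CTL cells, against 5.77 and 5.91 in Pan02OE-CTL cells (at least 8.07-fold higher, adjusted p = 0.00094).

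Of the 62 genes with a log2 difference of 4 or more, 41 were lower and 21 higher in Pan02KD-CTL cells. *Tnfsf15*, which encodes a TNF family ligand that acts on T cells, read 5.67 and 5.84 in Pan02KD-CTL cells, against 14.01 and 13.81 in Pan02OE-CTL cells. It was at least 86.0-fold lower in Pan02KD-CTL cells (log2 difference −8.15, SE 0.16, adjusted p = 3.6e-08). *Tspan8*, a tetraspanin gene, read 4.56 and 4.40 in Pan02KD-CTL cells, against 12.36 and 12.49 in Pan02OE-CTL cells (at least 30.8-fold lower). *Tnfsf9*, the gene of the ligand of the T cell receptor 4-1BB, was above background in both lines. *Tnfsf9* read 9.12 and 8.73 in Pan02KD-CTL cells, against 15.53 and 15.55 in Pan02OE-CTL cells, and was 98.1-fold lower. The receptor of that ligand went the other way: *Tnfrsf9*, which encodes 4-1BB, read 12.74 and 13.36 in Pan02KD-CTL cells, against 9.65 and 9.41 in Pan02OE-CTL cells (11.5-fold higher, adjusted p = 1.4e-05).

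The other genes of this end were of varied function. *Adgrf5* encodes an adhesion G protein-coupled receptor and read 6.68 and 7.29 in Pan02KD-CTL cells, against 13.95 on both arrays of Pan02OE-CTL cells. It was at least 88.7-fold lower. *Stra6*, the gene of a receptor for vitamin A uptake, was at least 78.3-fold lower, and *Fermt1*, which encodes the integrin activator kindlin-1, was 85.3-fold lower. *Nuak1*, a kinase gene, was 65.9-fold lower. *Kcnq1*, a potassium channel gene, read 4.76 and 4.83 in Pan02KD-CTL cells, against 11.20 and 11.08 in Pan02OE-CTL cells (at least 12.6-fold lower). *Pkhd1*, the gene of the ciliary protein fibrocystin, read 3.21 and 3.68 in Pan02KD-CTL cells, against 9.87 and 10.14 in Pan02OE-CTL cells (at least 5.76-fold lower). *Gpr141*, *Krt90*, *Cd244a* and *Pmp22* were also among them, and were lower by bounds between at least 7.74-fold (*Cd244a*) and at least 29.0-fold (*Krt90*). The 15 genes of each direction were picked among genes whose lines did not overlap, which held for 52.8% of all genes. The 2 arrays of a line lay within 1 log2 unit of each other except for *Csf2*, *P2rx7* and *Sod3* in Pan02KD-CTL cells.

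**Figure D2:**
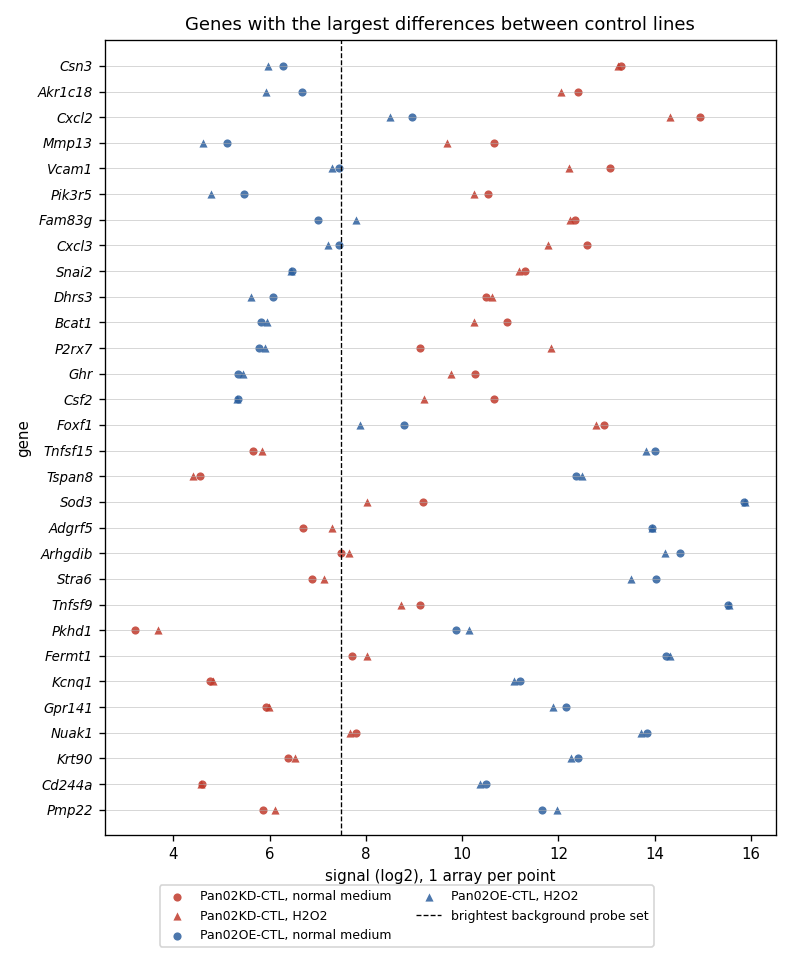
Log2 signal of the 15 genes with the largest positive and the 15 with the largest negative difference, 1 point per array (Pan02KD-CTL in red, Pan02OE-CTL in blue; circles, normal medium; triangles, H2O2). The dashed line is the brightest background probe set at 7.48. The genes were picked among those whose red and blue points do not overlap.

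The modified lines were compared in the study with these same control arrays, so only their levels are given here. *Snai2* averaged 6.71 in Pan02OE and 11.42 in Pan02KD cells, and *Pik3r5* 5.30 and 10.47. *Tnfsf15* averaged 5.86 in Pan02OE and 11.06 in Pan02KD cells, and *Tspan8* 5.69 and 10.92. The order of the lines differed between genes: for *Snai2* the Pan02OE level was near that of Pan02OE-CTL cells, and for *Tnfsf15* it was near that of Pan02KD-CTL cells. *Krt90* averaged 6.50 in Pan02OE and 6.45 in Pan02KD cells, and *Cd244a* 4.41 and 5.03, so that both were above background in Pan02OE-CTL cells and in no other line.

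Lysosomal genes were the list with the largest share of members called. Lysosomes break down proteins, lipids and sugars at an acid pH that a proton pump maintains, and many of their genes carry a binding site for the factors TFEB, TFE3 and MITF in their promoter. Of 41 lysosomal genes measured, 24 were higher (58.5%) and 3 lower (7.32%) in Pan02KD-CTL cells, against 7.64% and 9.28% of all genes. Their median log2 difference was 0.88, against 0.02 over all genes. Among the 31 members whose mean was above background, 22 were higher and 2 lower, and the median was 1.04. Of all genes with such a mean 13.8% were higher and 17.3% lower. The number higher was between 18 and 24 with any 1 control array left out, and the number lower was 1 without the Pan02OE-CTL array in H2O2. *Gla*, whose product alpha-galactosidase A removes galactose from glycolipids, read 14.20 and 14.66 in Pan02KD-CTL cells, against 10.88 and 11.16 in Pan02OE-CTL cells (10.6-fold, adjusted p = 6.5e-06). *Neu1*, a sialidase gene, read 10.57 and 10.81 in Pan02KD-CTL cells, against 7.98 and 8.14 in Pan02OE-CTL cells (6.21-fold). *Gpnmb*, a glycoprotein gene of lysosomes and melanosomes, was 13.4-fold higher, with 13.04 and 13.71 in Pan02KD-CTL cells and 9.85 and 9.42 in Pan02OE-CTL cells.

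By role, 10 of 12 genes of lysosomal membrane proteins and the proton pump were higher and none was lower. They included *Lamp1*, the gene of the main membrane glycoprotein (1.42, SE 0.16), *Mcoln1*, which encodes a calcium channel (1.55, SE 0.20), and the pump subunit genes *Atp6v0d1* (1.94, SE 0.18) and *Atp6v1a* (1.81, SE 0.16). Of 12 genes of glycosidases, sulfatases and lipid hydrolases, 7 were higher and 1 lower. The lower one was *Lipa*, whose product splits cholesteryl esters: it read 6.50 and 6.54 in Pan02KD-CTL cells, against 10.04 and 9.77 in Pan02OE-CTL cells (at least 5.36-fold lower, adjusted p = 1.7e-06). Among 12 protease genes 5 were higher, led by *Ctsl*, the cathepsin L gene (14.93 and 14.98 in Pan02KD-CTL cells, against 12.41 and 12.29 in Pan02OE-CTL cells), and 2 were lower, *Ctsh* (−0.79) and *Ctso*, the last below background on all 4 arrays. *Mitf* itself read 7.26 and 6.99 in Pan02KD-CTL cells, against 5.76 and 5.66 in Pan02OE-CTL cells, a called difference of 1.42 with all arrays below background. *Tfeb* (−0.43, adjusted p = 0.11) and *Tfe3* (0.06, adjusted p = 0.89) did not pass the test.

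**Figure D3:**
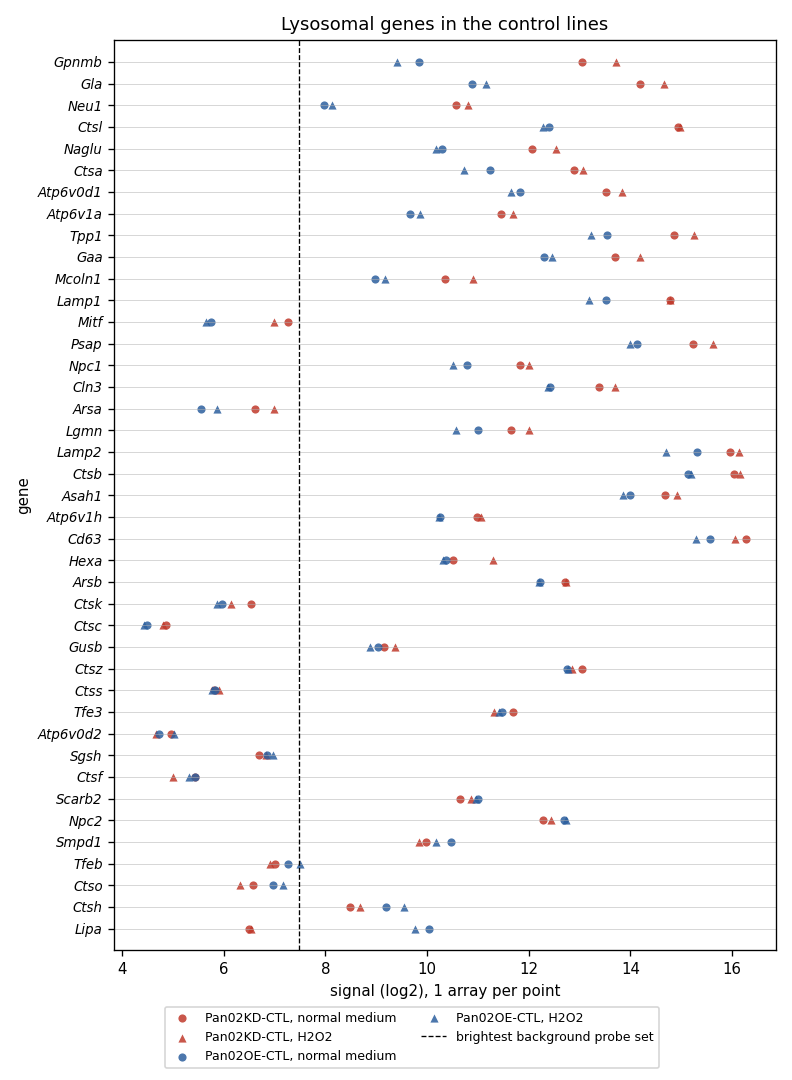
Log2 signal of the 41 lysosomal genes measured, ordered by their difference, 1 point per array (Pan02KD-CTL in red, Pan02OE-CTL in blue; circles, normal medium; triangles, H2O2; dashed line, brightest background probe set). Red points lie to the right of blue points in the upper part, and *Lipa* at the bottom shows the reverse.

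The promoters of lysosomal genes were read from RefSeq (GRCm38.p6), from 250 bases before to 50 after the start, since the data set their genes apart. The motif CACGTGA, which reads TCACGTG on the other strand and is the core of the element that TFEB, TFE3 and MITF recognize, was searched on both strands. It was chosen after the expression values had been seen. It overlaps with the palindrome CACGTG, which many other factors share. A window was at hand for 35 of the lysosomal genes and 12 of them held the motif (34.3%), against 5.21% of 15691 measured genes with a window. Of the 20 lysosomal genes with a window that were called higher, 11 held it (55.0%), against 1 of the 15 others (6.67%). The palindrome alone gave a like contrast, in 12 of the 20 (60%) and 2 of the 15 (13.3%). These groups were not matched for signal level. Over all genes, the motif CACGTGA was in 12.0% of those higher in Pan02KD-CTL cells and 3.88% of those lower. It was in 4.75% of those not called and 7.60% of those with a mean above background. The windows of *Gla* (chrX:134600956-134601255, minus strand), *Atp6v0d1* (chr8:105566015-105566314, minus strand) and *Lamp1* (chr8:13158911-13159210, plus strand) are shown 5′ to 3′, as examples of an enzyme, a pump subunit and a membrane protein, with matches to the motif on either strand in capitals.
Gla: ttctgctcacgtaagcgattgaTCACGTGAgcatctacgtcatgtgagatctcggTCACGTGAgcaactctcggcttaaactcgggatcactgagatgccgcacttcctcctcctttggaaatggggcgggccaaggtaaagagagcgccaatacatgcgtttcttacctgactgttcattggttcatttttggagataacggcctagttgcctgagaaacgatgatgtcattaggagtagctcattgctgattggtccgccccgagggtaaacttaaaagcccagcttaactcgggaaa
Atp6v0d1: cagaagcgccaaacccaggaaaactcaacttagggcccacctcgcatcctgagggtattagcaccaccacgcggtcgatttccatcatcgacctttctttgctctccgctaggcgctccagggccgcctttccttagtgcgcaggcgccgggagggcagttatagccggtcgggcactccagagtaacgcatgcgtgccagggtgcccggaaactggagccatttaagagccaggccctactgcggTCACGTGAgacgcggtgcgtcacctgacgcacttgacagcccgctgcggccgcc
Lamp1: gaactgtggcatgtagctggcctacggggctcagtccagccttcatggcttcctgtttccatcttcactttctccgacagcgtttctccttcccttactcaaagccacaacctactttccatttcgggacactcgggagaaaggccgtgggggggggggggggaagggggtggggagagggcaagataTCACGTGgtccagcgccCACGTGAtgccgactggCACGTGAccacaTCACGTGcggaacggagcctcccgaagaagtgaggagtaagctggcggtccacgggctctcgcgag
A match is a description of these letters and does not show that a factor was bound.

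Antioxidant genes formed a second group. NRF2 is a transcription factor that raises enzymes of glutathione and thioredoxin metabolism under oxidative stress. In a list of such genes 34.7% were higher and 10.2% lower in Pan02KD-CTL cells, against 7.64% and 9.28% of all genes. Of 49 genes of this list 17 were higher and 5 lower in Pan02KD-CTL cells, with a median of 0.27, and without the Pan02OE-CTL array in H2O2 11 were higher and 3 lower. *Hmox1*, the heme oxygenase gene, read 15.01 and 15.18 in Pan02KD-CTL cells, against 12.43 and 12.29 in Pan02OE-CTL cells (6.62-fold, adjusted p = 4.7e-06). *Slc7a11*, which encodes the cystine transporter that supplies glutathione synthesis, was higher by 2.12 (SE 0.19), and *Gsr*, the glutathione reductase gene, by 1.47 (SE 0.15). Other known NRF2 targets did not pass the test: *Nqo1* differed by 0.34 with all arrays below background, *Srxn1* by 0.01 and *Gclc* by 0.27. *Sod3*, which encodes the secreted superoxide dismutase, had the largest difference of the list in the other direction. *Sod3* read 9.19 and 8.03 in Pan02KD-CTL cells, against 15.86 and 15.88 in Pan02OE-CTL cells, and was 153.3-fold lower. Some mu-class glutathione S-transferase genes were lower as well: *Gstm1* by −2.30 and *Gstm2* by −2.81. *Gstm4*, *Gstm6* and *Gstm7* were also called lower but lay below background on all 4 arrays, and *Gstm3* and *Gstm5* did not pass. These genes are similar neighbors on chromosome 3, and how far their probe sets read each other was not tested. The alpha, pi and omega class genes *Gsta2* (1.94), *Gstp1* (1.16) and *Gsto1* (1.16) were higher.

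The chemokine genes called were mostly higher, while cytokine ligand genes went both ways. CXC chemokines mostly attract neutrophils and lymphocytes, and 6 of 11 CXC ligand genes were higher and none lower in Pan02KD-CTL cells. Of 35 chemokine and receptor genes 8 were higher (22.9%) and 1 lower (2.86%), against 7.64% and 9.28% of all genes. Beside *Cxcl2*, its neighbor *Cxcl3* read 12.60 and 11.79 in Pan02KD-CTL cells, against 7.44 and 7.22 in Pan02OE-CTL cells (at least 26.3-fold). *Cxcl5*, which acts on the same receptor, was called higher (adjusted p = 1.1e-05), with 1 of its 2 Pan02OE-CTL arrays below background. *Cxcl16*, a membrane-bound ligand of CXCR6, was 13.3-fold higher. *Cxcl1* was called with a difference of 1.24 (adjusted p = 0.013), but its call was lost without the array in normal medium of Pan02KD-CTL (adjusted p = 0.103) or of Pan02OE-CTL (adjusted p = 0.106), and without the medium term in the fit (adjusted p = 0.0762). The 1 lower gene was *Ackr3*, an atypical receptor that removes CXCL12: it read 8.86 and 8.49 in Pan02KD-CTL cells, against 12.21 and 12.31 in Pan02OE-CTL cells. *Ccl2*, the monocyte chemokine gene, did not pass the test (−0.20, SE 0.18, adjusted p = 0.53).

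Of 42 genes of cytokines, colony-stimulating factors and their receptors, 5 were higher (11.9%) and 13 lower (31%) in Pan02KD-CTL cells. Of all genes 7.64% were higher and 9.28% lower. The number lower was 8 without the Pan02OE-CTL array in normal medium. *Csf2*, the GM-CSF gene, read 10.66 and 9.21 in Pan02KD-CTL cells, against 5.34 and 5.32 in Pan02OE-CTL cells (at least 5.48-fold higher). *Il6*, whose product signals through STAT3, read 6.49 and 5.81 in Pan02KD-CTL cells, against 10.92 and 11.12 in Pan02OE-CTL cells, and was at least 11.7-fold lower (log2 difference −4.88, adjusted p = 7.7e-07). *Il18*, a cytokine that inflammasomes mature, was at least 3.98-fold lower, with 5.18 and 5.21 in Pan02KD-CTL cells and 9.65 and 9.30 in Pan02OE-CTL cells. *Il11*, of the IL-6 family, read 8.73 and 6.11 in Pan02KD-CTL cells, against 11.67 and 11.30 in Pan02OE-CTL cells. Its Pan02KD-CTL array in H2O2 was below background. The lines did not overlap, and the difference was −4.06 (SE 0.67, adjusted p = 0.0029), but the call was lost with a trended and robust spread (adjusted p = 0.0613). Among 23 ligand genes 4 were higher and 6 lower, with a median of −0.05. Among 19 receptor genes 7 were lower and 1 higher, with *Il1r1* (−1.15) and *Il6ra* (−1.13) among the lower. *Nod2*, a receptor gene for bacterial cell wall that belongs to the family of *Nlrx1*, read 5.34 and 4.92 in Pan02KD-CTL cells, against 8.18 and 8.44 in Pan02OE-CTL cells (at least 1.78-fold lower), and in all 4 of 24 NOD-like receptor and inflammasome genes were higher and 7 lower. Of these, 2 were higher and 4 lower without the Pan02OE-CTL array in normal medium, and 2 were higher when its H2O2 array was dropped.

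Of 42 collagen and interstitial matrix genes, 14 were lower and none higher in Pan02KD-CTL cells, against 9.28% of all genes lower, and the number lower was between 10 and 14 with any 1 control array left out. Of the 14, 7 had a mean above background. *Sparc*, which encodes a collagen-binding protein, read 13.09 and 12.23 in Pan02KD-CTL cells, against 16.87 and 16.68 in Pan02OE-CTL cells (17.3-fold lower, adjusted p = 2.6e-06). *Bgn*, a proteoglycan gene, was at least 5.79-fold lower, and *Col5a1*, a fibrillar collagen gene, was lower by −1.66 (SE 0.19). *Fn1*, the fibronectin gene, did not pass the test, with 17.25 and 17.16 in Pan02KD-CTL cells and 17.25 and 17.23 in Pan02OE-CTL cells. Matrix protease genes went both ways: *Mmp13*, a collagenase gene, read 10.67 and 9.69 in Pan02KD-CTL cells, against 5.12 and 4.62 in Pan02OE-CTL cells (at least 6.49-fold higher). *Mmp2*, the gelatinase A gene, read 5.74 on both arrays of Pan02KD-CTL cells, against 10.60 and 10.72 in Pan02OE-CTL cells (at least 9.07-fold lower). *Plau*, the urokinase gene, was 11.4-fold higher, with 13.54 and 13.64 in Pan02KD-CTL cells and 10.08 and 10.07 in Pan02OE-CTL cells.

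Genes of epithelial-mesenchymal transition did not move as a unit. Of 20 transcription factor and cadherin genes of this kind, 3 were higher (15%) and 6 lower (30%), against 7.64% and 9.28% of all genes. Beside the higher *Snai2*, *Twist1* read 9.37 and 9.07 in Pan02KD-CTL cells, against 10.94 and 10.78 in Pan02OE-CTL cells (−1.64, SE 0.17), and *Cdh2*, the N-cadherin gene, was lower by −1.14 (SE 0.16). *Vim*, the vimentin gene, was lower by −0.91, while *Snai1* (−0.09, adjusted p = 0.78) and *Cdh1*, the E-cadherin gene (−0.44, adjusted p = 0.24), did not pass. *Acta2*, the smooth muscle actin gene, read 5.87 and 5.46 in Pan02KD-CTL cells, against 10.04 and 9.13 in Pan02OE-CTL cells, and was at least 4.30-fold lower. *Pdgfrb*, another gene used to mark fibroblasts, was the reverse, with 9.86 and 9.31 in Pan02KD-CTL cells and 7.52 and 7.41 in Pan02OE-CTL cells, the last of these below background. *Muc1*, a mucin gene of ductal cells, read 8.75 and 8.78 in Pan02KD-CTL cells, against 6.67 and 6.68 in Pan02OE-CTL cells (at least 2.44-fold higher), and *Pkp1*, a desmosome gene, was at least 3.44-fold lower.

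Of 56 growth factor ligand and receptor genes 5 were higher and 13 lower in Pan02KD-CTL cells, where 7.64% of all genes were higher and 9.28% lower, with 8 lower without the Pan02KD-CTL array in H2O2 and 3 higher without the Pan02OE-CTL array in H2O2. *Egfr*, the epidermal growth factor receptor gene, read 8.61 and 8.54 in Pan02KD-CTL cells, against 11.06 and 10.75 in Pan02OE-CTL cells (5.03-fold lower, adjusted p = 1.3e-05). *Irs1*, which encodes a docking protein of the insulin receptor, was at least 16.5-fold lower, and *Igfbp4*, the gene of a binding protein for insulin-like growth factors, was 17.0-fold lower. Of 37 genes that respond to or restrain MAPK signaling, 3 were higher and 11 lower, with 4 lower without the Pan02OE-CTL array in H2O2, 5 when its normal-medium array was dropped and 6 without the Pan02KD-CTL array in H2O2. The number higher was 1 without the Pan02KD-CTL array in normal medium or without either Pan02OE-CTL array. *Spry1*, an inhibitor of receptor tyrosine kinase signaling, read 9.41 and 8.73 in Pan02KD-CTL cells, against 14.55 and 14.45 in Pan02OE-CTL cells (43.1-fold lower), whereas its relative *Spry4* was higher by 1.22 (SE 0.16) and *Spry2* did not pass (−0.04).

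Wnt proteins signal through Frizzled receptors, and R-spondins amplify them through the LGR receptors. Of 53 Wnt pathway genes 3 were higher (5.66%) and 10 lower (18.9%), against 7.64% and 9.28% of all genes. *Fzd1* read 8.37 and 8.79 in Pan02KD-CTL cells, against 12.05 and 11.76 in Pan02OE-CTL cells (10.1-fold lower), and *Fzd2* was 7.67-fold lower. *Lgr5* read 6.05 and 5.72 in Pan02KD-CTL cells, against 9.78 and 9.85 in Pan02OE-CTL cells (at least 5.04-fold lower). Its relative *Lgr6* was the reverse, with 7.95 and 7.67 in Pan02KD-CTL cells and 4.97 and 5.37 in Pan02OE-CTL cells, as was the ligand gene *Rspo3*, with 8.36 and 8.48 in Pan02KD-CTL cells and 5.73 and 5.30 in Pan02OE-CTL cells. *Notum*, which encodes an enzyme that inactivates Wnt proteins, was called lower, with 1 of its 2 Pan02KD-CTL arrays below background. Of 53 TGF-beta and BMP genes 5 were higher and 12 lower, with 3 higher without the Pan02KD-CTL array in normal medium or the Pan02OE-CTL array in H2O2 and 2 without the Pan02OE-CTL array in normal medium. With all arrays, 9.43% of the TGF-beta and BMP genes were higher, near the share of all genes, and 22.6% were lower. The lower genes included the ligand gene *Bmp7* (10.1-fold) and *Fst*, whose product follistatin captures activins (11.5-fold).

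MHC class I molecules show peptides to CD8+ T cells together with beta-2 microglobulin. Of 14 genes of class I molecules and peptide loading, 6 were higher and none lower, where 7.64% of all genes were higher and 9.28% lower. *H2-K1* read 13.89 and 14.17 in Pan02KD-CTL cells, against 12.17 and 12.35 in Pan02OE-CTL cells (3.40-fold, adjusted p = 0.00014), and *H2-D1* and *B2m* were higher by 1.19 and 0.96. The transporter gene *Tap1* (−0.09) and the immunoproteasome gene *Psmb8* (−0.24) did not pass and lay below background. With the checkpoint ligands, 11 of 32 genes were higher and 2 lower, and 6 were higher without the Pan02OE-CTL array in normal medium. The 2 lower were *Cd274*, which encodes PD-L1, and *Lgals9*, which encodes galectin-9. *Cd274* read 6.24 and 6.85 in Pan02KD-CTL cells, against 8.80 and 8.90 in Pan02OE-CTL cells (at least 2.59-fold lower). *Lgals9* read 5.98 and 6.45 in Pan02KD-CTL cells, against 10.42 and 9.92 in Pan02OE-CTL cells (at least 6.46-fold lower).

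OXPHOS subunits build the respiratory chain, and 21 of 75 were higher and 2 lower, with a median of 0.35. Of the 75, 73 had a mean above background, and of all such genes 13.8% were higher and 17.3% lower. In complex I, 8 of 36 were higher and 2 lower, and in complexes II to V with cytochrome c 13 of 39 were higher and none lower. The largest was *Ndufb5*, a complex I subunit gene, with 12.59 and 12.62 in Pan02KD-CTL cells and 11.66 and 11.41 in Pan02OE-CTL cells (2.10-fold). The number of OXPHOS genes higher was 10 without the Pan02KD-CTL array in H2O2, 9 when the Pan02OE-CTL array in normal medium was dropped and 10 when its H2O2 array was, and 1 was lower with any control array left out. *Ppargc1a*, which encodes the coactivator PGC-1alpha of mitochondrial genes, read 13.77 and 14.00 in Pan02KD-CTL cells, against 10.46 and 10.52 in Pan02OE-CTL cells, and was 10.5-fold higher (adjusted p = 3.8e-06). Of 39 glycolysis and hypoxia-linked genes 15 were higher (38.5%) and 6 lower (15.4%). Of 38 p53 targets and cell cycle inhibitors 12 were higher (31.6%) and 3 lower (7.9%). Among members with a mean above background, 11 of 28 glycolysis genes were higher and 5 lower, where 13.8% and 17.3% of all such genes were. Of 30 such p53 genes 12 were higher and 2 lower. For the full lists, the shares of all genes were 7.64% higher and 9.28% lower. The glycolysis count of genes higher was 7, 6, 4 and 2, and the p53 count 9, 7, 5 and 1, without the Pan02KD-CTL array in normal medium or H2O2 and the Pan02OE-CTL array in normal medium or H2O2, in that order. In the same order, the glycolysis count of genes lower was 2, 4, 2 and 2, and the p53 count 1, 1, 0 and 0. *Cdkn1a*, the p21 gene and a main p53 target, did not pass the test (0.14, SE 0.15, adjusted p = 0.63). In cholesterol and fatty acid synthesis, 8 of 31 genes were higher, led by *Fdps* (1.66, SE 0.19), and 1 was lower, *Dhcr7*, which encodes an enzyme of a late step (10.02 and 9.61 in Pan02KD-CTL cells, against 11.91 and 12.06 in Pan02OE-CTL cells). The number higher was 5 without the Pan02KD-CTL array in H2O2 or without either Pan02OE-CTL array, and 2 were lower without the Pan02OE-CTL array in normal medium.

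**Figure D4:**
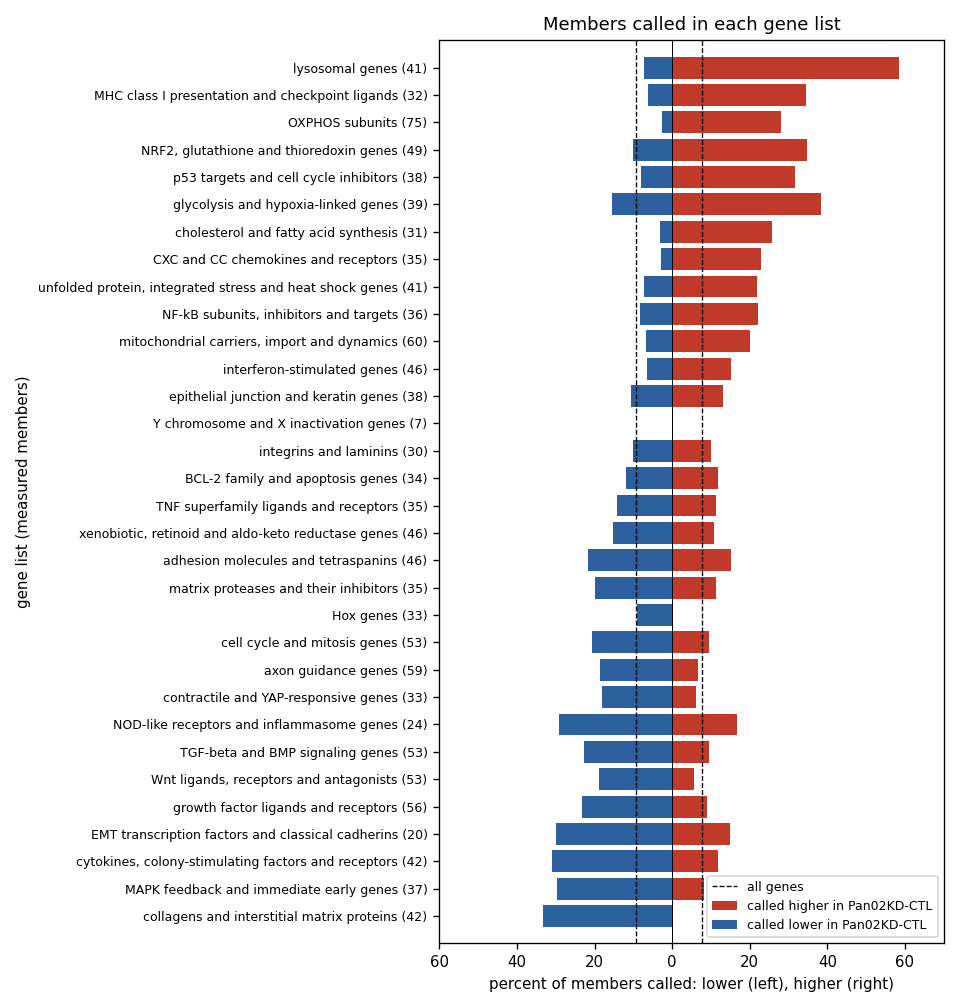
Percent of the measured members of each gene list called higher (red, to the right) and lower (blue, to the left) in Pan02KD-CTL than in Pan02OE-CTL cells, with the number measured in brackets. The dashed lines are the shares of all genes, 7.64% higher and 9.28% lower; lysosomal genes reach farthest to the right and collagen and matrix genes farthest to the left.

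Along the genome, chromosome 13 stood lower in Pan02KD-CTL cells. Over 355 of its genes with a mean above background the median log2 difference was −0.44, with 6.76% called higher and 41.1% lower, against 13.8% and 17.3% of all such genes. The shift was −0.39 in normal medium and −0.48 in H2O2. Chromosome X leaned the other way: over 246 genes the median was 0.21, with 29.3% higher and 8.94% lower. Over the 7640 genes of the other chromosomes the median was −0.04, with 13.6% higher and 16.4% lower, but they were not alike: chromosome 16 had a median of −0.22 (8.20% higher, 27.5% lower) and chromosome 19 of −0.18, while chromosome 12 had 0.15 (22.7% higher, 11.3% lower). In windows of 40 neighboring genes, taken every 20 genes, the 383 medians lay between −0.89 and 0.51 with an SD of 0.18. All 6 windows below −0.5 were on chromosome 13, and 5 of them joined into a run of 120 genes from *Gpr137b-ps* to *Sirt5*, of which 9 were higher and 71 lower. The run was picked by its low medians, so that a surplus of lower genes in it follows from the choice. In the rest of chromosome 13 the median was −0.34 over 235 genes, 15 higher and 75 lower. The highest window, from *Pex2* to *Ndufb5*, was on chromosome 3.

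This run holds the main cluster of histone genes, whose products package newly made DNA in S phase. On chromosome 13, 44 histone genes had a mean above background, with a median of −0.89 and 35 of them lower. The 8 histone genes of chromosome 3 had a median of −0.62, with 4 lower. Low histone values were not particular to Pan02KD-CTL cells. Set against the same Pan02OE-CTL arrays, the chromosome 13 histone genes had a median of −1.07 in Pan02OE and 0.02 in Pan02KD cells. Those of chromosome 3 had −0.785 in Pan02OE and −0.05 in Pan02KD cells. Without its histone genes the run had a median of −0.42 over 76 genes, 9 higher and 36 lower, and chromosome 13 had a median of −0.36 over 311 genes, 24 higher and 111 lower. Of all genes with a mean above background 13.8% were higher and 17.3% lower. Over these 311 genes the median against Pan02OE-CTL cells was −0.13 in Pan02OE and −0.06 in Pan02KD cells. Histone genes are near-identical copies, so that their probe sets are not separate measurements. Single genes of the chromosome went against its shift: *Akr1c18* was at least 26.9-fold higher, and the 4 placental prolactin-like genes *Prl2c1*, *Prl2c2*, *Prl2c3* and *Prl2c5*, which are similar in sequence, were higher by 1.82 to 3.49. Gene dose was not measured here, and its part in these shifts was not tested.

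**Figure D5:**
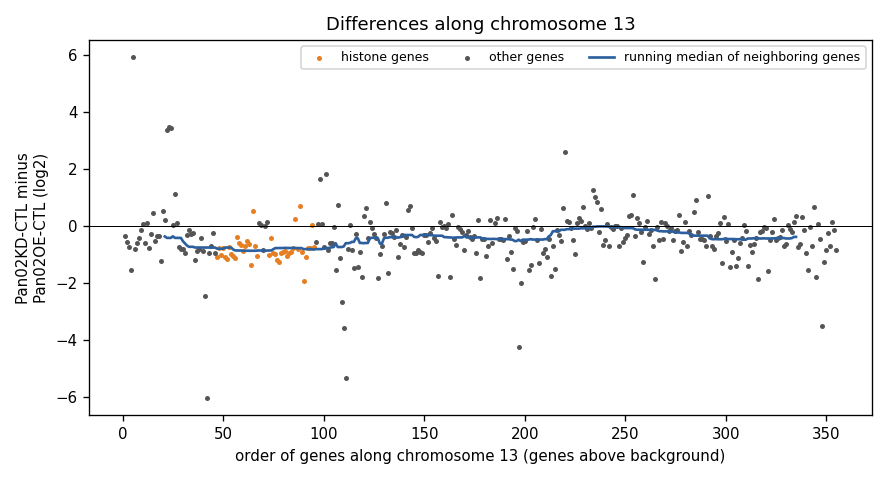
Log2 difference of Pan02KD-CTL minus Pan02OE-CTL for the 355 genes of chromosome 13 with a mean above background, in their order along the chromosome (histone genes in orange, other genes in gray, running median as a line). The running median lies mostly below 0 and is lowest around the histone genes.

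The difference between the lines was larger than the difference between media. The Euclidean distance over 19505 genes was 51.7 between the 2 Pan02KD-CTL arrays and 37.7 between the 2 Pan02OE-CTL arrays, and 91.6 to 98.3 between arrays of different lines. *Ly6c1*, a GPI-anchored surface protein gene, was lower in H2O2 by 2-fold or more in both lines. It read 10.95 in H2O2, against 12.35 in normal medium, in Pan02KD-CTL cells and 9.23, against 11.15, in Pan02OE-CTL cells. In Pan02KD-CTL cells, *Il11* was lower in H2O2 by −2.61 and *Csf2* by −1.46, while *P2rx7* was higher by 2.72. In Pan02OE-CTL cells *Il11* differed by −0.37, while *Csf2* and *P2rx7* were below background on both arrays. With 1 array for each line and medium none of these was tested.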

How the data were processed

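RNA of the Pan02 lines was measured on Clariom S mouse arrays. The deposited values are log2 signals that the authors made with the Transcriptome Analysis Console; its version, the summarization and the normalization are not given in the sources used here. Of 28846 probe sets 6640 are controls, and 19572 have 1 gene symbol, 0 several and 2634 none. For each symbol the probe set with the highest mean over the 8 Pan02 arrays was kept, which left 19505 genes. No library depth applies to arrays, and their number limits the precision. The column of the manufacturer's control RNA (1 column) was empty and not used. Arrays were assigned by their titles.

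The model, fitted by limma 3.58.1 under R 4.3.3, held a term for each line plus a term for medium; lmFit and eBayes were run on the 8 Pan02 arrays with 3 residual and 6.17 prior degrees of freedom. The medium term pairs the arrays, since the replicate numbers stand for media. Genes were called at a Benjamini-Hochberg adjusted p under 0.05 over all 19505 genes. The fit was tested on simulated data. A gene was taken as below background where it read at or below 7.48, the brightest of 23 antigenomic probe sets, and such a line was set to that value for a lower bound of the fold.

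Named were *Nlrx1*, the 15 genes with the largest difference in each direction (called, lines not overlapping, higher line above background, no predicted or clone names), the 4 called members with the largest difference of each gene list, and the genes the study names for its arrays. Further members, *Gstm* and *Prl2c* genes and the motif CACGTGA were chosen after their values had been seen. The members and lists were chosen with earlier results of these data known, so their counts are descriptions beside the share of all genes, without a set test. Subgroups of lists by role were made after the values had been seen. Gene order and promoter windows came from RefSeq tables (GRCm38.p6). Alternatives were median centering, cyclic loess, filters on low signal, all probe sets, a trended and robust eBayes, no medium term, only the 4 control arrays, other thresholds and each array left out.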

Additional observations from a re-analysis of the deposited data

How the results depend on the processing

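The count of 3302 genes called (1491 higher, 1811 lower in Pan02KD-CTL cells) lay between 2959 and 4008 under centering, cyclic loess, filters on low signal, a trended and robust spread, no medium term and the 4 control arrays alone. Without the medium term, and so with no replicate block, 3249 genes were called. At an adjusted p under 0.01 there were 1831 (789 higher, 1042 lower), and with a 2-fold limit added to the main threshold 1397 (604 higher, 793 lower). With 1 array left out the count was 1704 to 3074, with 752 to 1367 genes higher and 952 to 1707 lower. The numbers fell most without a control array, where a line is left with 1 array that is assumed to vary like the other lines: 2879 and 2187 without the Pan02KD-CTL array in normal medium or H2O2, and 1871 and 1704 without the Pan02OE-CTL array in normal medium or H2O2. The genes called there and in the full fit (2354, 1977, 1796 and 1650, in that order) all had the same sign. Of 154 named genes called, none changed sign under the alternatives, which is no support for them. The difference itself stays the same with a trended and robust spread, without the medium term and with the 4 control arrays alone. The same holds without an array of a modified line. Without a control array a change of sign was hardly possible, since all called genes had the same sign in both media. The calls lost were *Il11* with a trended and robust spread and *Cxcl1* without the medium term, and 8, 9, 15 and 12 without the control arrays, in the same order, *Nlrx1* among them. The cause was not tested. What the arrays cannot show is set by their background: 482 called genes were below the brightest background probe set on all 4 arrays.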

Other observations

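The Pan02KD-CTL array in H2O2 lay apart from its partner. Between the 2 media 271 genes differed by 2-fold or more in Pan02KD-CTL cells and 33 in Pan02OE-CTL cells. Of the 193 that were higher in H2O2 in Pan02KD-CTL cells, 130 were below the brightest background probe set on both arrays. Families with many similar copies were among them. The 22 *Btbd35f* genes had a median difference of 1.04 in Pan02KD-CTL cells, with 11 at 2-fold or more, and of 0.07 in Pan02OE-CTL cells. The 6 *Speer4* genes had a median of 1.24 in Pan02KD-CTL cells and 0.05 in Pan02OE-CTL cells, and 24 of 199 *Vmn1r* vomeronasal receptor genes reached 2-fold in Pan02KD-CTL cells and 0 in Pan02OE-CTL cells. Other large families moved less: 19 of 1091 *Olfr* and 5 of 120 *Vmn2r* genes were higher by 2-fold in Pan02KD-CTL cells. Over all 19505 genes it was 193. *Ipw*, an imprinted noncoding gene, read 10.34 in H2O2 and 5.61 in normal medium in Pan02KD-CTL cells, against 5.93 and 6.28 in Pan02OE-CTL cells. These are single arrays, and the part of the array or of the medium was not tested.

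Other motifs were counted in the promoter windows. The E-box CAGGTG, which reads CACCTG on the other strand and to which SNAI2 and ZEB1 bind, was found in 22.7% of windows of genes higher in Pan02KD-CTL cells, 20.5% of those lower, 22.1% of all and 19.1% of those with a mean above background. The AP-1 motif TGAGTCA, which reads TGACTCA on the other strand, was in 7.55% of windows of genes higher in Pan02KD-CTL cells, 5.82% of those lower, 5.51% of all and 4.51% of those with a mean above background. The palindrome CACGTG was in 16.7% of windows of genes higher in Pan02KD-CTL cells, 8.77% of those lower, 9.26% of all and 12.2% of those with a mean above background. These are shares without a test.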
